A study of Mus musculus with 8 samples.

Results

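The members described here were 34 mouse genes, given by name, that make amino acids, move one-carbon units on folate or carry amino acids across the plasma membrane. They were 22 enzymes and 12 carriers out of 49492 gene symbols in the deposited table, all 34 were found there, and all 34 passed the filter for testing (2 or more libraries at 1 or higher). Messenger RNA was sequenced in 8 libraries from mouse embryonic fibroblasts (MEFs), connective tissue cells grown from embryos, here immortalized by serial passage from mice with a floxed Pontin gene. Every group shared this Pontin f/f background and an added copy of Flag-tagged Pontin delivered by lentivirus and held by hygromycin selection, and the study describes removal of the endogenous gene from such lines by Cre virus. The added copy was either the wild-type form (Pontin WT) or a form with 2 arginines replaced by alanine (Pontin RA), and each line was kept in normal medium or in glucose starvation medium, with 2 libraries in each of the 4 groups. The comparisons ask how the members respond to loss of glucose and whether that response depends on the arginines of Pontin that are methylated by CARM1. WT and RA cells were stably expressing lines, so the line and the Pontin form cannot be told apart. The starvation medium described in the methods also held dialyzed serum, so glucose and the serum change cannot be told apart either, and the length of starvation before RNA extraction was not given in the sources used here. Nothing in the labels says that the 2 libraries of a group came from separate cultures, so p-values measure only the spread between these libraries, which may be technical.

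As background, serine is built from an intermediate of glycolysis by 3 enzymes in turn, and serine then gives glycine and a one-carbon unit that is passed on folate through parallel enzymes in the cytosol and the mitochondria. Those units feed purine, thymidylate and methionine synthesis, and amino groups are passed between glutamate, aspartate, alanine and the branched-chain amino acids by aminotransferases. Many of these genes, and the carriers that bring amino acids into the cell, are known targets of ATF4, the transcription factor of the integrated stress response. Cells in culture draw essential amino acids from the medium through such carriers.

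Values are in CPM, reads scaled to a common library total after the authors had adjusted each library size, and libraries held between 43205841 and 56363034 recovered reads. Changes are differences of log2(CPM + 1), with the standard error (SE) from limma, and a gene was called at a Benjamini-Hochberg adjusted p under 0.05 over 16232 tested genes. The 4 groups shared an estimate of the spread of each gene, so its SE is equal in both lines by design. Libraries of a group disagreed most in starved RA and least in WT in normal medium. The chi-square of their reads per gene was 16.8 and 3.49. The scale understates the change of low genes. Of 15 fibroblast markers, 14 had a mean of at least 1, and their summed level moved with the medium, from 12055 to 12150 in WT cells in normal medium to between 6079 and 6171 under starvation, and from 11917 to 12218 down to between 8029.5 and 8036 in RA cells. Of 10 immune markers 2 had a mean of at least 1, with a summed level between 13.6 and 26.0 and with Cd3e and Nkg7 at 0 in every library. The same held for 1 of 6 epithelial markers (35.7 to 99.9 summed, Krt5 and Krt14 at 0), 1 of 5 endothelial markers (2.05 to 9.43) and 2 of 6 neural markers (32.6 to 116). The part of these shifts in the results was not tested. Ruvbl1, the gene of Pontin, stood at 28.4 and 27.6 CPM in WT cells in normal medium, 27.9 and 28.4 under starvation, 36.8 and 32.0 in RA cells in normal medium and 45.0 and 42.9 under starvation. It was higher in RA than in WT by 0.29 (log2) in normal medium and 0.62 under starvation. The level of Pontin mRNA and the form of Pontin therefore cannot be told apart between the lines. Reads of Ruvbl1 do not tell the added copy from the endogenous gene, so they do not check the labels.

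Most of these genes were higher under glucose starvation in both lines. In WT cells 30 of 34 members rose and 3 fell, where 39.3% of all tested genes rose and 39.2% fell. In RA cells 27 rose and 5 fell, where 35% of all tested genes rose and 33.7% fell. Members at least 2-fold higher numbered 19 in WT and 17 in RA, where 7.84% and 4.44% of all genes reached this size. The median log2 difference over the members was 1.35 in WT and 1.02 in RA, against 0.0049 and 0.013 over all genes tested. In these bulk samples a change in the share of a cell type and a change in RNA per cell cannot be told apart.

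**Figure D1:**
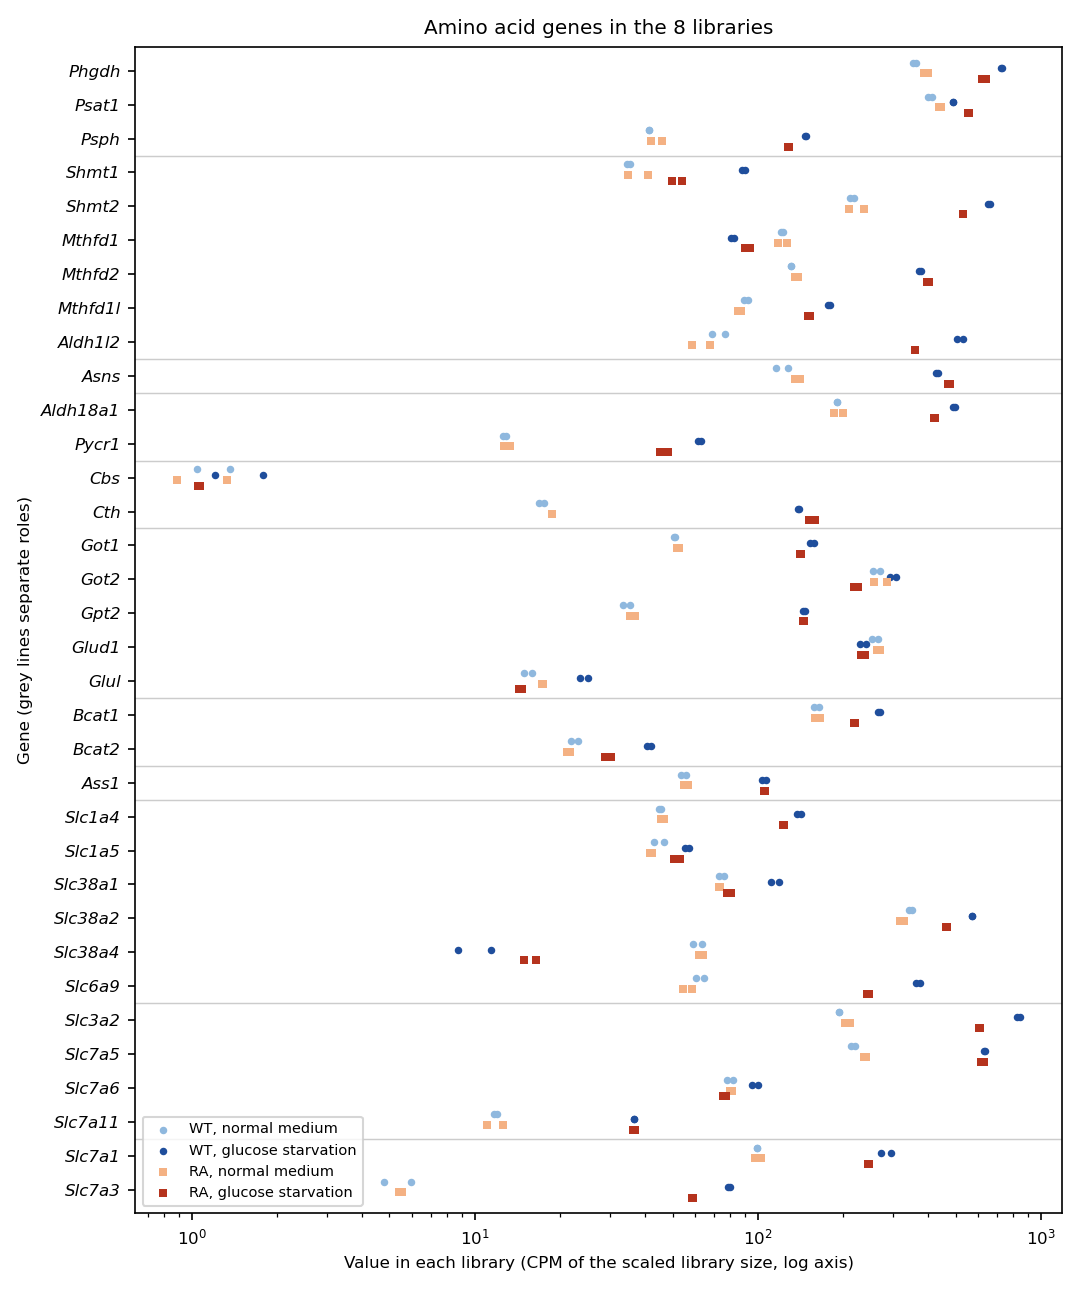
Values of the 34 members in the 8 libraries, one row per gene, on a log axis in CPM of the scaled library size, with circles for WT, squares for RA and dark symbols for glucose starvation. Dark symbols lie to the right of light ones for most genes, and to the left for Slc38a4, Mthfd1 and Glud1 in both lines.

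Per kilobase of exon, using GENCODE gene models, Phgdh had the highest mean level of the members, at 212 CPM per kb, followed by Shmt2 at 131, Slc3a2 at 131, Slc7a5 at 115, Psat1 at 111 and Asns at 106. Cbs was the lowest at 0.163 and Slc7a11 came next at 1.74. The members therefore covered over 3 orders of magnitude in level, and the low end carried fewer reads. Cbs had as few as 46 reads in a library, while Phgdh had at least 16682.

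The start-site windows of the members were read for the element bound by ATF4 with C/EBP partners, written as TGATGNAA and searched on both strands, because many of the members are known targets of ATF4. RefSeq promoters (build GRCm38.p6, 250 bases before to 50 after each start) held 28 of the 34 members, and Slc7a5, Cth, Aldh1l2, Slc1a5, Slc7a3 and Slc38a1 were not matched. The element was in windows of 5 of these 28 members (17.9%), against 4.51% of 27025 genes, 2.66% of 10351 tested genes with a window and 3.97% of all 32851 promoters. Each match is printed on the strand of its gene, all of them minus, with the element in capitals, so that TTGCATCA is the element read on the opposite strand. The pair in Slc7a11 comes from windows that overlap. Each distance is that of the first base of the match, so the match in Slc1a4 runs across the start. A match is a description of the letters and not of binding.
Slc7a11, chr3:50443662-50443689, 66 bases before the start: ctcatgtggcTGATGCAAacctggagaa
Slc7a11, chr3:50443643-50443670, 47 bases before the start: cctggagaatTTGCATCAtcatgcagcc
Asns, chr6:7693215-7693242, 23 bases before the start: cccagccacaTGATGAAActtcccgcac
Slc1a4, chr11:20332700-20332727, 4 bases before the start: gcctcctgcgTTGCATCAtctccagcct
Pycr1, chr11:120643834-120643861, 103 bases before the start: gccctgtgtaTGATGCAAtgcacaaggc
Got1, chr19:43524690-43524717, 102 bases before the start: attgcattggTTGCATCAtacaagcctc

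The FOXO element GTAAACA, searched because the study ties Pontin to FOXO3a, was in the window of 1 of the 28 members (3.57%), Slc7a11, against 4.05% of 27025 genes and 3.05% of 10351 tested genes with a window. No match says only that these letters were not in the window.

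The serine pathway rose as a whole in both lines, with 3 of 3 enzymes called higher in each. Of all tested genes 39.3% rose in WT and 35% in RA. Phgdh makes the first and committed step from the glycolytic intermediate. It stood at 363 and 355 CPM in WT cells in normal medium and 724 and 727 under starvation, and at 387 and 398 in normal medium and 639.6 and 619.6 under starvation in RA cells. Starved libraries were above normal-medium libraries in both lines without overlap, and starved RA libraries were below starved WT libraries. The log2 difference was 1.01 (SE 0.037) in WT and 0.68 (SE 0.037) in RA, with limma adjusted p of 8.82e-14 and 4.49e-11.

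Psph, the phosphatase that ends the pathway, stood at 41.3 and 41.4 CPM in WT cells in normal medium and 147 and 148 under starvation. RA cells had 42.0 and 45.9 in normal medium and 127 and 129 under starvation. No group overlapped its starved counterpart, and the rise was 1.81 in WT and 1.52 in RA (limma adjusted p 7.35e-16 and 2.22e-14). Psat1, the aminotransferase between them, rose least of the 3 genes, by 0.27 in WT and 0.34 in RA. Reads of Psph and of Cct6a on the opposite strand share 10.4% of the Psph exons and could not be told apart, since strand handling was not stated. Within each library the ratio of Phgdh to Psat1, per base of exon, was 1.56 and 1.48 in WT cells in normal medium and 2.53 and 2.55 under starvation, against 1.52 and 1.54 and then 1.99 and 1.90 in RA cells. The first 2 enzymes did not move by equal amounts, and the shift was smaller in RA libraries.

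Among the 6 serine-to-glycine and folate enzymes, 5 rose and 1 fell in each line. Of all tested genes 39.3% rose and 39.2% fell in WT, and 35% rose and 33.7% fell in RA. The mitochondrial enzymes rose. Shmt2, which splits serine into glycine and a one-carbon unit in mitochondria, stood at 212 and 218 CPM in WT cells in normal medium, 653 and 659 under starvation, 211 and 237 in RA cells in normal medium and 530.1 and 529 under starvation. All starved libraries were above all normal-medium ones, and starved RA libraries were below starved WT ones. The rise was 1.60 (SE 0.046) in WT and 1.24 (SE 0.046) in RA (limma adjusted p 3.28e-15 and 2.72e-13).

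Mthfd2, the mitochondrial dehydrogenase and cyclohydrolase that oxidizes the folate-bound unit, stood at 131 and 132 CPM in WT cells in normal medium and 372 and 377 under starvation. The RA libraries held 135 and 139 in normal medium and 403 and 398 under starvation. The starved groups did not overlap, with RA above WT, unlike Shmt2. Its rise was 1.502 in WT and 1.54 in RA (limma adjusted p 2.83e-16 and 8.77e-16).

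Aldh1l2 oxidizes formyl-folate in mitochondria and showed the largest rise of the folate enzymes. It stood at 76.4 and 68.9 CPM in WT cells in normal medium, 532 and 504 under starvation, 67.7 and 58.8 in RA cells in normal medium and 359.8 and 359 under starvation. Group means were 7.13 times higher under starvation in WT and 5.68 times higher in RA. The log2 difference was 2.82 (SE 0.058) and 2.49 (SE 0.058), with limma adjusted p of 4.07e-17 and 8.66e-16. Starved RA libraries were below starved WT libraries. Exons of D10Wsu102e on the opposite strand cover 14.1% of those of Aldh1l2. Mthfd1l, which releases formate from mitochondria, rose by 0.97 in WT and 0.81 in RA.

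Of the cytosolic enzymes of this group, Mthfd1, which carries out the matching reactions in the cytosol, fell, with differences of -0.58 (WT) and -0.41 (RA) (limma adjusted p 2.30e-09 and 3.44e-07). Shmt1, the cytosolic partner of Shmt2, stood at 35.4 and 34.5 CPM in WT cells in normal medium and 88.3 and 89.9 under starvation. In RA cells it stood at 41.0 and 34.9 in normal medium and 49.8 and 54.0 under starvation. Both starved groups were above their normal-medium groups without overlap, and the starved RA libraries lay between the normal-medium and the starved WT libraries. The rise was 1.33 (SE 0.064) in WT and 0.44 (SE 0.064) in RA (limma adjusted p 4.12e-12 and 9.76e-06). Smcr8 on the opposite strand shares 4.74% of the Shmt1 exons.

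**Figure D2:**
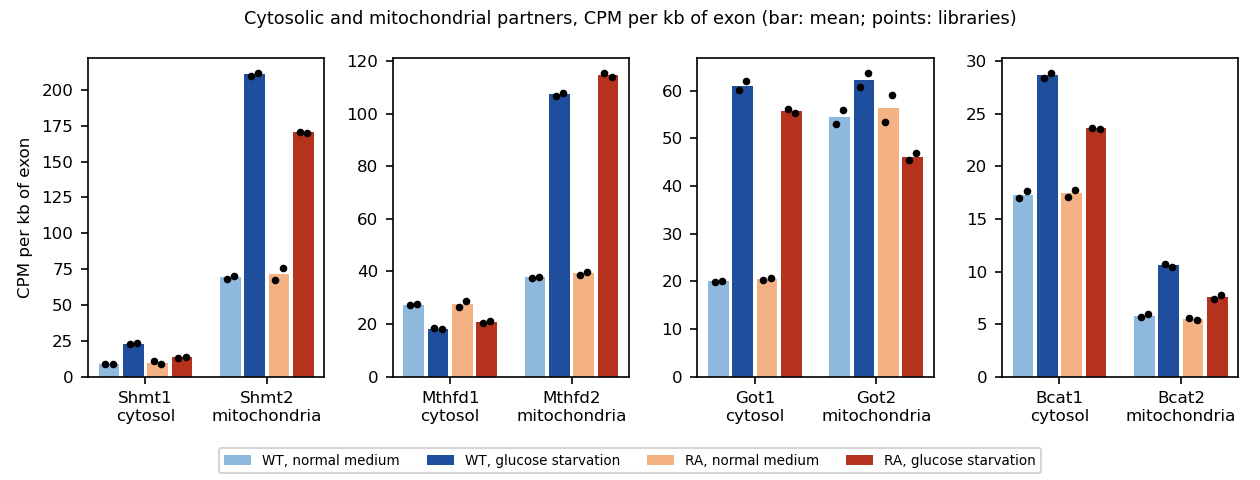
Cytosolic and mitochondrial partners in CPM per kb of exon, with a bar for the group mean and a point for each of the 2 libraries. Mthfd2 rose while Mthfd1 fell, Shmt1 and Got2 were lower in starved RA than in starved WT cells, and Bcat1 and Bcat2 kept their order in all groups.

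Ratios within a library do not depend on its scaling, and these pairs were chosen after their values were seen. The ratio of Mthfd2 to Mthfd1, per base of exon, was 1.39 and 1.37 in WT cells in normal medium and 5.77 and 5.98 under starvation, and was 1.46 and 1.39 and then 5.70 and 5.41 in RA cells. The mitochondrial gene thus gained on the cytosolic one in both lines. For Shmt2 over Shmt1 the ratio was 7.49 and 7.91 in WT cells in normal medium and 9.23 and 9.15 under starvation. In RA cells it was 6.42 and 8.46 in normal medium and 13.3 and 12.2 under starvation. The RA libraries under starvation held the highest ratios of the 8.

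Asparagine synthetase, Asns, stood at 116 and 128 CPM in WT cells in normal medium, 426 and 433 under starvation, 135 and 141 in RA cells in normal medium and 469 and 477 under starvation. RA libraries were above WT libraries in both media, and starved libraries were above normal-medium libraries in both lines. The rise was 1.81 (SE 0.044) in WT and 1.77 (SE 0.044) in RA (limma adjusted p 4.22e-16 and 2.06e-15). Its window carries the element printed above.

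Both proline enzymes rose. Aldh18a1, which makes the first intermediate of proline from glutamate, stood at 191 and 191 CPM in WT cells in normal medium and 496 and 489 under starvation. In RA cells it stood at 186 and 199 in normal medium and 420.4 and 422 under starvation. Pycr1, the reductase that finishes proline in mitochondria, stood at 12.9 and 12.6 in normal medium and 61.6 and 63.2 under starvation in WT cells and at 13.3 and 12.7 in normal medium and 45.3 and 48.2 under starvation in RA cells. For both genes the starved libraries were above the normal-medium ones, and starved RA libraries were below starved WT libraries. The rises were 1.36 and 2.21 in WT and 1.12 and 1.77 in RA, with limma adjusted p between 2.07e-15 and 1.15e-13. Pycr1 has the element farthest from its start among the 5 genes.

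Of the 2 genes of transsulfuration, which passes sulfur from homocysteine to cysteine, 1 rose in each line. The share of all tested genes that rose was 39.3% in WT and 35% in RA. Cth, the enzyme that releases cysteine, stood at 17.5 and 16.9 CPM in WT cells in normal medium, 139.6 and 138 under starvation, 18.8 and 18.7 in RA cells in normal medium and 159 and 152 under starvation. Its mean was 8.07 times higher under starvation in WT and 8.29 times higher in RA, the highest fold among the 22 enzymes in each line. The log2 difference was 2.94 (SE 0.047) and 2.98 (SE 0.047), with limma adjusted p of 2.17e-18 and 1.02e-17. Cbs, which makes the substrate of Cth, was near the floor of the filter at 0.891 to 1.79 CPM over the 8 libraries, and passed in neither line (0.18 with SE 0.15 in WT and -0.024 in RA, limma adjusted p 0.303 and 0.898). Its groups overlapped.

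Of the 5 glutamate-linked enzymes, 4 rose and 1 fell in WT, where 39.3% of all tested genes rose and 39.2% fell. In RA 2 rose and 3 fell, where 35% of all tested genes rose and 33.7% fell. Got1, the cytosolic aspartate aminotransferase, stood at 50.6 and 51.2 CPM in WT cells in normal medium, 153 and 158 under starvation, 51.7 and 52.8 in RA cells in normal medium and 143 and 141 under starvation. Gpt2, the mitochondrial alanine aminotransferase, stood at 33.5 and 35.4 in normal medium and 147 and 145 under starvation in WT cells and at 35.5 and 37.0 in normal medium and 146 and 145 under starvation in RA cells. Starved Gpt2 libraries of the 2 lines overlapped, while starved RA libraries of Got1 were below those of WT. The rises of Got1 were 1.59 and 1.42, and those of Gpt2 were 2.05 and 1.97, in WT and RA (limma adjusted p between 9.15e-17 and 1.01e-14).

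Glul and Got2 moved one way in WT cells and the other way in RA cells. Glul, glutamine synthetase, stood at 14.9 and 15.9 CPM in WT cells in normal medium and 25.2 and 23.6 under starvation. In RA cells it stood at 17.2 and 17.5 in normal medium and 14.7 and 14.4 under starvation. Starved libraries were above normal-medium libraries in WT and below them in RA, without overlap in either line. The difference was 0.63 (SE 0.073) in WT and -0.24 (SE 0.073) in RA (limma adjusted p 4.96e-07 and 0.00699). Got2, the mitochondrial aspartate aminotransferase, was 256 and 270.2 CPM in WT cells in normal medium and 293 and 308 under starvation, and 258 and 285 in normal medium and 219 and 227 under starvation in RA cells. The starved groups lay above normal medium in WT and below it in RA, again without overlap. Its differences were 0.19 in the WT line and -0.28 in the RA line (limma adjusted p 0.00148 and 5.23e-05). Glud1, which links glutamate to the citric acid cycle, fell, with differences of -0.14 (WT) and -0.18 (RA). The Glud1 call in WT rests on single libraries: without replicate 2 of WT in normal medium or replicate 1 of WT under starvation the limma adjusted p was 0.0807 and 0.0615.

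Per base of exon, Got1 stood at 0.376 and 0.360 of Got2 in WT cells in normal medium and at 0.989 and 0.974 under starvation. In RA cells the ratio went from 0.381 and 0.352 to 1.24 and 1.18. The cytosolic gene thus gained on the mitochondrial one in both lines, and the ratio was highest in starved RA libraries. Where the ratio reaches equality depends on the exon lengths used, and in CPM Got1 was below Got2 in every library.

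The branched-chain aminotransferases both rose. Bcat1, the cytosolic form, stood at 158 and 165 CPM in WT cells in normal medium and 265 and 269 under starvation, and at 159.7 and 166 in normal medium and 221 and 219.5 under starvation in RA cells. Its rise was 0.72 in WT and 0.43 in RA (limma adjusted p 1.18e-11 and 2.17e-08). The mitochondrial Bcat2 rose by 0.84 and 0.44, and 16.0% of its exons are shared with 0610005C13Rik on the opposite strand.

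Ass1, which joins citrulline and aspartate on the way to arginine, stood at 53.6 and 55.7 CPM in WT cells in normal medium, 103 and 107 under starvation, 55.0 and 56.5 in RA cells in normal medium and 106 and 105 under starvation. It rose by 0.93 in WT and 0.91 in RA (limma adjusted p 2.24e-12 and 7.26e-12), and the starved groups overlapped.

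Of the 12 carriers, 11 rose and 1 fell in WT, where 39.3% of all tested genes rose and 39.2% fell. In RA 10 rose and 1 fell, where 35% of all tested genes rose and 33.7% fell. Among the 6 neutral and glycine carriers, Slc6a9, the glycine transporter, stood at 64.6 and 60.6 CPM in WT cells in normal medium, 375 and 364 under starvation, 54.4 and 58.5 in RA cells in normal medium and 247 and 243 under starvation. RA libraries were below WT libraries in both media. The rise was 2.54 (SE 0.044) in WT and 2.10 (SE 0.044) in RA (limma adjusted p 6.03e-18 and 2.84e-16). Ccdc24 on the opposite strand covers 27.8% of the Slc6a9 exons, and Gm17114 covers 9.94%.

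Slc1a4, an exchanger of alanine, serine and cysteine, stood at 45.6 and 44.9 CPM in WT cells in normal medium and 142 and 137 under starvation, and at 46.5 and 45.6 in normal medium and 123 and 124 under starvation in RA cells. It rose by 1.61 and 1.40 (limma adjusted p 8.96e-16 and 1.68e-14), with starved RA libraries below starved WT ones. Its glutamine-carrying relative Slc1a5 rose by 0.32 and 0.30.

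The 3 sodium-coupled carriers of the SLC38 family did not move together. Slc38a2, a carrier of small neutral amino acids that is known to adapt to amino acid supply, rose by 0.72 in WT and 0.52 in RA. Slc38a1, a glutamine carrier, stood at 73.3 and 76.0 CPM in WT cells in normal medium and 119 and 112 under starvation. RA cells had 73.4 and 73.0 in normal medium and 80.2 and 77.6 under starvation. The WT groups lay far apart, and the RA groups lay close together without overlap. It rose by 0.62 in WT and by 0.11 in RA (limma adjusted p 9.46e-10 and 0.0424). The RA call was lost in 11 of 19 alternatives, edgeR at an adjusted p of 0.0584 among them, and without any one of the libraries of WT in normal medium, RA in normal medium or RA under starvation the limma adjusted p was between 0.0512 and 0.226.

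Slc38a4, another carrier of neutral amino acids, was the member that fell most. It stood at 59.0 and 63.6 CPM in WT cells in normal medium, 11.4 and 8.73 under starvation, 64.3 and 62.1 in RA cells in normal medium and 16.5 and 14.9 under starvation. Starved libraries were below normal-medium ones in both lines, and starved RA libraries were above starved WT ones. The difference was -2.50 (SE 0.089) in WT and -1.94 (SE 0.089) in RA (limma adjusted p 6.22e-14 and 4.75e-12). No other member was at least 2-fold lower in either line.

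Heteromeric carriers pair a heavy chain with a light chain that does the transport. Slc3a2, the heavy chain, stood at 194 and 193 CPM in WT cells in normal medium, 822 and 843 under starvation, 204 and 213 in RA cells in normal medium and 611 and 605 under starvation. Its rise was 2.10 (SE 0.037) in WT and 1.54 (SE 0.037) in RA (limma adjusted p 6.03e-18 and 1.07e-15), and starved RA libraries were below starved WT libraries. Slc7a5, the light chain for large neutral amino acids, stood at 221 and 213 in normal medium and 637 and 629 under starvation in WT cells and 242 and 237 in normal medium and 630.4 and 613 under starvation in RA cells. It rose by 1.54 and 1.37, and its starved groups overlapped. The ratio of Slc3a2 to Slc7a5, per base of exon, was 0.923 and 0.954 in WT cells in normal medium and 1.36 and 1.41 under starvation, against 0.888 and 0.943 and then 1.02 and 1.04 in RA cells. The ratio of heavy to light chain was thus lower in starved RA libraries than in starved WT libraries.

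Slc7a11, the light chain that exchanges cystine for glutamate, stood at 12.0 and 11.7 CPM in WT cells in normal medium, 36.5 and 36.5 under starvation, 11.1 and 12.6 in RA cells in normal medium and 36.4 and 37.0 under starvation. The lines overlapped in both media. The rise was 1.55 (SE 0.071) in WT and 1.55 (SE 0.071) in RA (limma adjusted p 2.09e-12 and 4.65e-12). Slc7a6, a light chain for cationic and neutral amino acids, rose by 0.28 in WT and differed by -0.074 in RA (limma adjusted p 1.49e-05 and 0.142).

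The cationic carriers, which bring in arginine and lysine, held the largest rise of all members. Slc7a3 stood at 5.98 and 4.78 CPM in WT cells in normal medium, 78.6 and 79.8 under starvation, 5.43 and 5.54 in RA cells in normal medium and 58.5 and 59.1 under starvation. Its mean was 14.7 times higher under starvation in WT and 10.7 times higher in RA. The log2 difference was 3.66 (SE 0.081) in WT and 3.21 (SE 0.081) in RA (limma adjusted p 1.16e-16 and 2.21e-15). Slc7a1, the widely expressed carrier of the same family, stood at 99.1 and 99.5 in normal medium and 297 and 272 under starvation in WT cells and at 102 and 98.0 in normal medium and 245 and 246 under starvation in RA cells, a rise of 1.51 and 1.29. Per base of exon, Slc7a3 was at 0.184 and 0.146 of Slc7a1 in WT cells in normal medium and at 0.807 and 0.893 under starvation, with 0.162 and 0.172 and then 0.729 and 0.730 in RA cells. Starved RA libraries of both genes were below those of WT.

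Before starvation 29 of the 34 members were not called between the lines, and all 34 differences lay between -0.20 and 0.18. In normal medium 3 members were higher in RA than in WT and 2 were lower, where 6.68% of all tested genes were higher and 2.95% lower, and the median difference over the members was 0.029. Asns was higher in RA by 0.18, Slc7a5 by 0.14 and Phgdh by 0.13 (limma adjusted p 0.0174, 0.0224 and 0.0384). The differences of the lower genes were -0.20 for Aldh1l2 and -0.15 for Slc6a9 (limma adjusted p 0.0394 and 0.0490). The call of Slc6a9 was lost at a pseudocount of 0.1 and with only the groups compared (limma adjusted p 0.0532 and 0.114). In edgeR it was lost as well (adjusted p 0.0525). That of Aldh1l2 was lost with only the groups compared (limma adjusted p 0.0674) and in DESeq2 (adjusted p 0.151). At the scaling to total reads no member was higher and 3 were lower, Aldh1l2, Slc6a9 and Slc38a2, and quantile normalization gave 1 higher and 3 lower. Without replicate 1 of WT in normal medium limma called 0 members, 6 at an unadjusted p under 0.05. Without replicate 2 of that group, or without either library of RA under starvation, it called 2 members in each case, and without replicate 2 of RA in normal medium it called 3. On recovered reads edgeR called 4 members and DESeq2 6.

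Under starvation 27 of the 34 members differed between the lines, and so did 10211 of 16232 tested genes. Here RA cells had lower values in 21 members and higher values in 6, where 32.1% of all tested genes were lower and 30.8% higher. The median difference was -0.22 over the members and -0.0081 over all genes. The lowest differences, RA minus WT, were -0.77 for Shmt1, -0.71 for Glul, -0.59 for Slc6a9, -0.54 for Slc38a1 and -0.53 for Aldh1l2, with limma adjusted p between 5.06e-09 and 5.72e-07. These 5 genes were folate, glutamine and carrier genes. Members higher in RA were Slc38a4 (0.60), Psat1 (0.18), Mthfd1 (0.17), Cth (0.16), Asns (0.14) and Mthfd2 (0.097), with limma adjusted p up to 0.0265. The last 3 calls rest on single libraries, as does that of Got1 (-0.13). The call of Mthfd2 was also lost with median-ratio scaling and without limma's trend (limma adjusted p 0.0638 and 0.102). That of Asns was also lost without a filter and without the trend (limma adjusted p 0.0632 and 0.0867). Leaving out any 1 of the 4 starved libraries put Mthfd2 at a limma adjusted p between 0.0508 and 0.138. Asns was at 0.0631 without replicate 1 of starved WT and 0.0792 without replicate 2 of starved RA, and Cth was at 0.103 without replicate 1 of starved RA. Got1 was at 0.0821 without replicate 2 of starved WT and at 0.0720 without replicate 2 of starved RA.

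**Figure D3:**
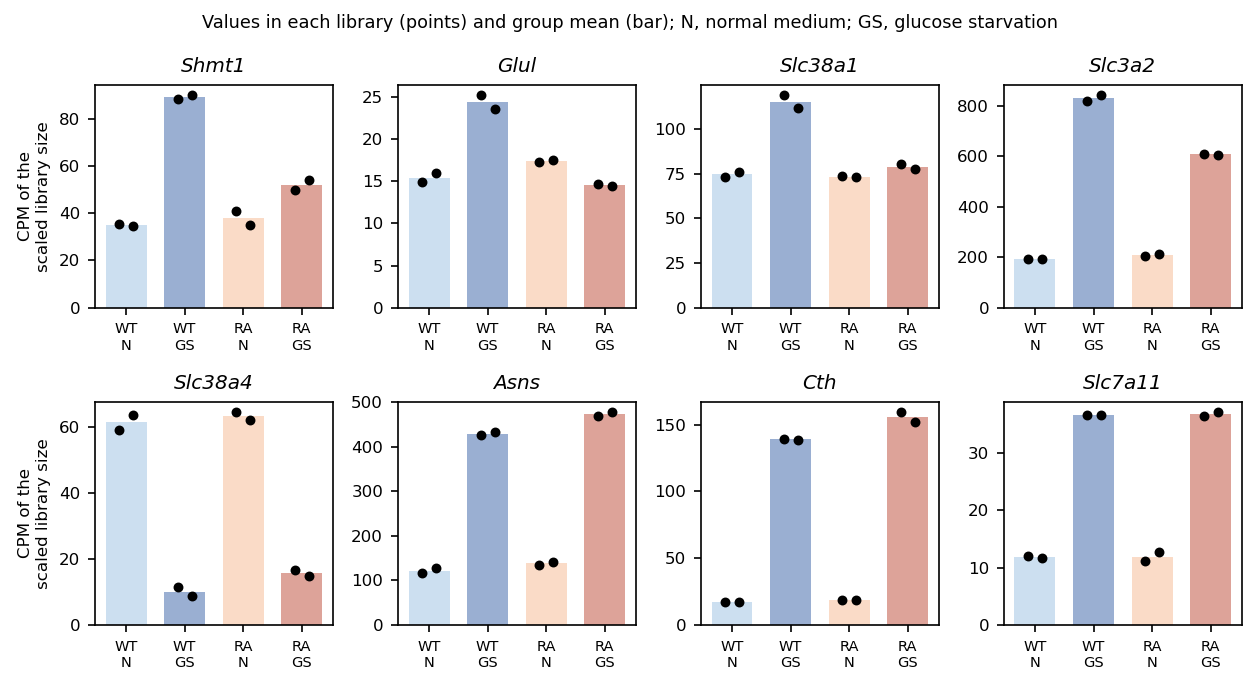
CPM in each of the 8 libraries (points) and group means (bars from 0) for 8 members, with N for normal medium and GS for glucose starvation. Shmt1, Glul, Slc38a1 and Slc3a2 are lower in starved RA than in starved WT cells, Slc38a4 is low in both starved groups, Asns and Cth are somewhat higher in starved RA cells, and Slc7a11 overlaps between the lines.

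The difference between the responses, RA minus WT, was tested as an interaction. It was negative and called in 22 members and positive and called in 2, where 26.1% of all tested genes were lower and 24.5% higher. Scaling to total reads gave 17 lower and 3 higher members, and among all genes it moved the share of calls that were higher from 48.4% to 58.1%. The median over the members was -0.21, against -0.011 over all genes. Shmt1 had the lowest interaction at -0.88 (SE 0.090), then Glul at -0.87 (SE 0.10), Slc3a2 at -0.56 (SE 0.052) and Slc38a1 at -0.51 (SE 0.063), with limma adjusted p of 5.49e-07, 2.72e-06, 1.70e-07 and 4.19e-06. Got2 followed at -0.47, Slc7a3 at -0.45, Slc6a9 at -0.45 and Pycr1 at -0.44. Slc38a4 had the highest at 0.56 (SE 0.13, limma adjusted p 0.00147), which is a smaller fall in RA. Of the enzymes 13 of 22 had a called negative interaction, and of the carriers 9 of 12.

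**Figure D4:**
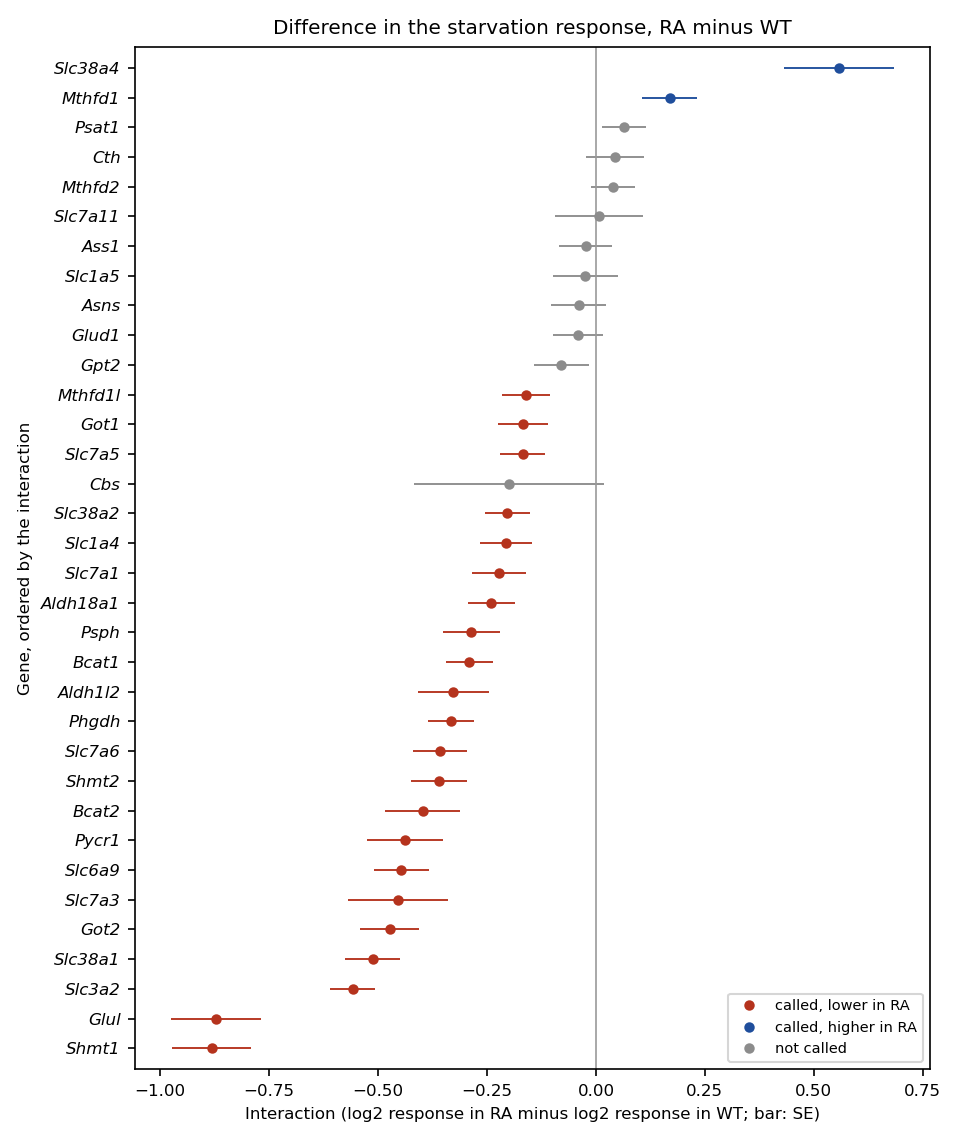
Interaction for each of the 34 members, the log2 response in RA less that in WT, as a point with its SE and ordered by value. Red points mark 22 members called lower, blue points 2 called higher and grey points 10 not called.

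The interaction was not called for 10 members, Psat1, Mthfd2, Asns, Cbs, Cth, Gpt2, Glud1, Ass1, Slc1a5 and Slc7a11. Of these, Mthfd2, Asns, Cth, Gpt2 and Slc7a11 were at least 2-fold higher under starvation in both lines, with interactions between -0.079 (Gpt2, SE 0.063) and 0.044 (Cth, SE 0.067). Their roles span folate, asparagine, sulfur, alanine and cystine. Total-read scaling lost the calls of Mthfd1l, Got1, Slc1a4, Slc7a5 and Slc7a1, and quantile normalization those of Mthfd1l, Got1, Slc38a2 and Slc7a5. Without limma's trend the calls of Mthfd1, Mthfd1l, Aldh1l2, Got1, Slc7a5 and Slc7a1 were lost, and without a filter those of Mthfd1 and Aldh1l2. On recovered reads edgeR lost those of Mthfd1l and Got1. The calls of Mthfd1 (0.17), Mthfd1l (-0.16), Got1 (-0.17) and Slc7a5 (-0.17) also depended on single libraries. Mthfd1 was at a limma adjusted p between 0.0584 and 0.134 without either library of WT in normal medium, replicate 2 of starved WT, replicate 1 of RA in normal medium or replicate 2 of starved RA. Mthfd1l was between 0.0531 and 0.109 without replicate 2 of WT in normal medium, replicate 2 of starved WT or either library of starved RA. For Got1 it was between 0.0521 and 0.0810 without replicate 1 of WT in normal medium, replicate 2 of starved WT or either library of starved RA. Slc7a5 was at 0.0795 without replicate 2 of WT in normal medium and 0.0696 without replicate 2 of starved RA.

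**Figure D5:**
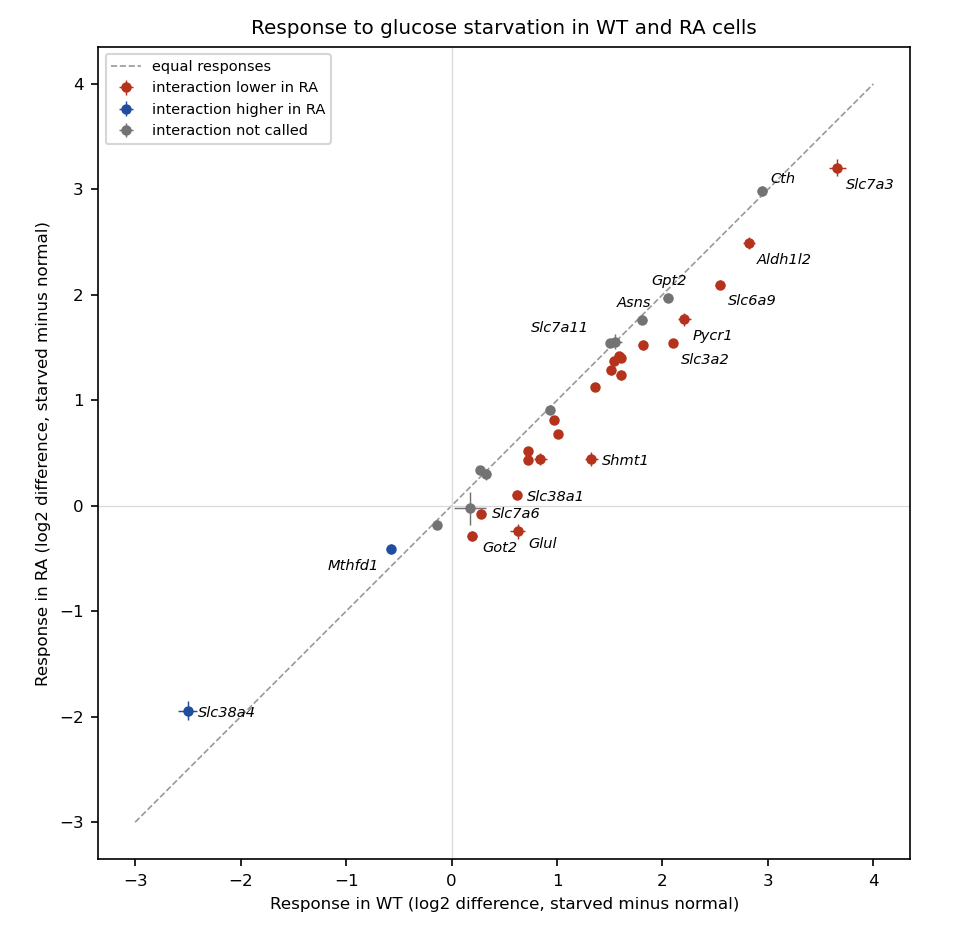
Response to glucose starvation in RA (vertical) against WT (horizontal) for the 34 members, as log2 differences with SE, with a dashed line for equal responses. Most members lie below the line on the right, Asns, Cth, Gpt2 and Slc7a11 lie near it, and Glul and Got2 lie above 0 in WT and below 0 in RA.

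Across the 34 members the responses of the 2 lines, which share no libraries, followed each other closely. Pearson's r was 0.97 and the major-axis slope of RA on WT was 0.927, against 0.782 and 0.635 over all genes tested. Genes are not independent replicates, and these are descriptions across genes. The members were chosen with earlier results known and hold many large changes, which by itself raises r. Their values are thus not directly comparable with those of all genes. The order of the members was thus mostly kept, with Slc7a3, Cth, Aldh1l2 and Slc6a9 the 4 highest in each line and Slc38a4 the lowest.

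Other genes of these pathways are given by their counts, to be read against all tested genes, of which 39.3% rose and 39.2% fell in WT and 35% rose and 33.7% fell in RA. Among 56 other amino acid enzymes, 38 were tested, of which 20 rose and 10 fell in WT, and 14 rose and 9 fell in RA. Chac1, which breaks down glutathione, rose most in both lines, by 3.66 in WT and 3.26 in RA. Among 44 other genes of the folate and methionine cycles and glycine cleavage, 37 were tested, of which 10 rose and 19 fell in WT and 11 rose and 22 fell in RA. The called gene of largest change was Mthfd2l, a relative of Mthfd2, in WT (-1.55) and Tyms, thymidylate synthase, in RA (-1.26). Of 30 other plasma membrane carriers, 13 were tested, with 6 higher and 4 lower in WT and 7 higher and 3 lower in RA. Slc38a7, a glutamine carrier that is also known at the lysosome, changed most, by 2.20 in WT and 1.92 in RA. Medians over the tested genes of these 3 lists together were 0.058 in WT and -0.00046 in RA, where those over the members were 1.35 and 1.02.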

How the data were processed

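The submitters' processing notes name TopHat2 (version 2.0.9), bedtools, edgeR and mm9. The read counter, annotation and strand handling are not given in the sources used here. The authors deposited a signal, CPM of a library size scaled per sample, where plain CPM had been planned for, and the same test was used. Columns marked minus and plus were read as normal medium and starvation, after the study's scheme, and 0 columns were unused. All nonzero values (100%, within 0.1 read) were whole reads, and 78.2% to 80.5% of counts from 1 to 9 were even. The study sequenced both ends of each fragment, and each end may have been counted, which was not tested. Read numbers given here and used by edgeR and DESeq2 may then exceed the number of fragments. A value of 3 reads lay between 0.055 and 0.069, for counting error only.

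Log2(value + 1) of 16232 genes, with at least 1 in at least 2 of 8 samples, was fitted with limma (version 3.58.1, R version 4.3.3), a mean per group, eBayes with a trend, 2-sided p-values and Benjamini-Hochberg adjustment over all genes of each contrast, and the fit was tested on simulated counts. Values in every sample are given for members changed by at least 1 (log2) and called in either response, for called interactions of at least 0.5, and for the highest member of a role with neither, 24 in all (Got2 was added after its values were seen). In each list of other pathway genes the called gene of largest change is named. Members and lists were chosen with earlier results of these data known. Alternatives changed the pseudocount, filter, scaling, samples, replicate block, trend and threshold, and replaced limma with edgeR (4.0.16) or with DESeq2 (1.42.0), both run on the reads recovered. Exon lengths and overlaps came from GENCODE M21 on GRCm38. A length was the merged exons of all transcripts of a gene and may differ from that of the transcript expressed. Levels of different genes per base of exon depend on it.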

Additional observations from a re-analysis of the deposited data

Results flagged for a closer look

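For 24 of the 34 members the response to glucose starvation differed between RA and WT cells by limma's test of the difference itself (Benjamini-Hochberg adjusted p under 0.05), 22 lower and 2 higher in RA, where 26.1% of all tested genes were lower and 24.5% higher. The values are log2 response in RA less log2 response in WT, and no explanation was tested. Calls of this difference that were lost under other settings are named with the interaction above. Among the serine and folate enzymes the difference was -0.33 for Phgdh, -0.29 for Psph, -0.88 for Shmt1, -0.36 for Shmt2, -0.16 for Mthfd1l and -0.33 for Aldh1l2, with the opposite sign for Mthfd1 at 0.17. The proline enzymes differed by -0.24 (Aldh18a1) and -0.44 (Pycr1). For the enzymes of glutamate and the branched-chain amino acids the values were -0.17 for Got1, -0.47 for Got2, -0.87 for Glul, -0.29 for Bcat1 and -0.40 for Bcat2. Neutral and glycine carriers differed by -0.21 (Slc1a4), -0.51 (Slc38a1), -0.20 (Slc38a2) and -0.45 (Slc6a9), while Slc38a4 had 0.56. The heteromeric carriers gave -0.56 for Slc3a2, -0.17 for Slc7a5 and -0.36 for Slc7a6, and the cationic carriers -0.22 for Slc7a1 and -0.45 for Slc7a3.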

How the results depend on the processing

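Over 170 member values (34 members in 5 comparisons) and 19 alternatives, 3191 values were obtained, of which 3077 kept their side of the threshold (values that were not called could change sign), 102 lost the call, 12 gained one and 0 reversed a called direction, and 144 member values did not change side under any of them. At the stricter adjusted p of 1e-05 limma called 7399 genes for starvation in WT, 4961 in RA, 141 for RA against WT in normal medium, 3596 under starvation and 1764 for the interaction, with 0, 11 and 4 members in the last 3. At an adjusted p under 0.05 with a change of at least 2-fold, these were 3179, 1465, 82, 1088 and 990 genes and 20, 18, 0, 0 and 0 members. RA against WT in normal medium was the comparison that moved most: it had 1563 genes and 5 members called, but 650 genes and 0 members with no filter (11 members at an unadjusted p under 0.05), 590 genes and 0 members with no trend (8 unadjusted), 3 members with total-read scaling and 2 with only the groups compared. The cause was not tested. Leaving out 1 library gave 559 to 1706 genes and 0 to 5 members in that comparison, 8850 to 10441 genes and 24 to 27 members for RA against WT under starvation, 7170 to 7931 genes and 20 to 24 members for the interaction, 32 to 33 members for starvation in WT and 31 to 32 in RA. Where a group kept 1 library, it was assumed to vary like the others. Among interaction genes the share that were higher was 48.4% as deposited, 58.1% with total-read scaling and 43% after quantile normalization. With the replicate number as a block, 33, 32, 6, 27 and 24 members were called in the 5 comparisons, in the order given for the stricter threshold. Deviations of same-numbered libraries correlated between -0.0076 and 0.157, so the numbers were not taken as pairs.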
